A study of Mus musculus with 10 samples.

Results

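Glycolysis, the uptake of glucose and the export of lactate were followed through 37 listed genes in the mouse retina, of which 32 were measured and tested among 23255 genes. The listed genes were found by gene symbol, each through the transcript cluster (the array's probe group for one transcript) that the probe annotation gives to that symbol alone, and through the cluster of highest mean where a gene had several. Gpi1, Eno1, Pfkfb1 and Mpc2 have no cluster named for them in the annotation used here, and Pfkfb2 shares its only cluster with another symbol, so these 5 genes are not analysed here. All 32 measured genes passed the filter on low values, which asked for at least 2 arrays above that array's 30th percentile.

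Whole retina of C57BL/6JJmsSlc mice was profiled on 10 whole-transcript arrays, 2 for each of 5 groups. Oxygen-induced retinopathy (OIR) was produced by housing mice in 75% oxygen from postnatal day 7 for 5 days and then in air, and 3 groups of OIR retina were taken on day 17: injected into the vitreous with the inhibitor ISOX DUAL when the hyperoxia ended (P17OIR+ISOX DUAL), injected with phosphate-buffered saline at that time (P17OIR+PBS), and uninjected (P17OIR). Untreated retina of day 17 (P17Control) and of day 7 (P7Control) were the other two groups. ISOX DUAL is a small molecule that blocks bromodomains, the protein modules that read acetylated histones, and the labels give no dose. The stated purpose of the series was to find genes raised in OIR that returned towards their starting level with ISOX DUAL. No allele or transgene is named for any group, and the labels do not say how many animals stand behind an array.

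Glycolysis splits glucose into pyruvate in the cytosol. Hexokinases trap glucose in the cell, phosphofructokinase is the main control point of the upper steps, and the lower steps return ATP and NADH. Pyruvate is then either reduced to lactate by lactate dehydrogenase and exported by monocarboxylate transporters, or taken into mitochondria and oxidised by the pyruvate dehydrogenase complex, which the pyruvate dehydrogenase kinases switch off. The adult retina is known for converting much of its glucose to lactate even in oxygen, an activity centred on photoreceptors, and low oxygen raises many of these genes in other tissues through hypoxia-inducible factors.

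The promoters of the members that passed the test in any comparison are shown first, since hypoxia-inducible factors are known to bind the short motifs ACGTG and GCGTG. The windows are RefSeq's for mouse GRCm38.p6 and run from 250 bases before to 50 bases after an annotated transcript start. Of the 10 members that passed, 9 have such a window (Slc16a7 has none in the table used), with 14 windows in all. Either motif, searched on both strands, was in 11 of the 14 windows, against 43.8% of all 32851 promoter windows of 300 bases; windows of Aldoa overlap and share bases. Eno2 had no match in its window, and the other genes had one in at least 1 window. ACGTG was in 19.6% and GCGTG in 32.4% of all windows. The 5 windows printed are both of Pfkfb3 and that of Pfkp, the 2 genes that rose in OIR, and those of Slc16a1 and Hk2, the members with the smallest p-values between day 17 and day 7. Capitals mark each match on either strand, so that CACGT is ACGTG and CACGC is GCGTG read on the opposite strand; CACGTG counts as ACGTG on both.
Pfkfb3, chr2:11502041-11502340, minus strand: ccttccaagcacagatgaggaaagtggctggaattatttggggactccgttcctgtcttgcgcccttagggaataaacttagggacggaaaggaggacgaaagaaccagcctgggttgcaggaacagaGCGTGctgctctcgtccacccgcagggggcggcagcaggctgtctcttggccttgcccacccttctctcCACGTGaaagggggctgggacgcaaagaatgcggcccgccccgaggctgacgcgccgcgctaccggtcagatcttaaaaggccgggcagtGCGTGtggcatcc
Pfkfb3, chr2:11553880-11554179, minus strand: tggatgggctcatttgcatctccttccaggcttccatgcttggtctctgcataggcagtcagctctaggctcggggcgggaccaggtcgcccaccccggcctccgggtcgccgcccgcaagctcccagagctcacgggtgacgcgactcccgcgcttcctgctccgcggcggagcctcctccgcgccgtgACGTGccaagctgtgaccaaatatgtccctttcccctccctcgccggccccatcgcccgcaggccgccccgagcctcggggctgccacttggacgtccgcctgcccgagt
Pfkp, chr13:6648722-6649021, minus strand: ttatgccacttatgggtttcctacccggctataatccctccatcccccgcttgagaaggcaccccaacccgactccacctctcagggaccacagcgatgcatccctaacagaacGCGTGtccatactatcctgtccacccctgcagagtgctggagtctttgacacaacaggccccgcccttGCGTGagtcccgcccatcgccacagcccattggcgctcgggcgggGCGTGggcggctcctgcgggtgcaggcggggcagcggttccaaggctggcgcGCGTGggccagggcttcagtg
Slc16a1, chr3:104638414-104638713, plus strand: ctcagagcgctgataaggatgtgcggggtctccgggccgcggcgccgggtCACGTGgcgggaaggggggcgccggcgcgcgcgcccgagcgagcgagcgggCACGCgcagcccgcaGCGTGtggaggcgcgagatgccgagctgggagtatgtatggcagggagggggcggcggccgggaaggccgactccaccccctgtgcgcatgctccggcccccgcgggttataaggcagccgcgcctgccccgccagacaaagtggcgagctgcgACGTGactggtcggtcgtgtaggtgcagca
Hk2, chr6:82774405-82774704, minus strand: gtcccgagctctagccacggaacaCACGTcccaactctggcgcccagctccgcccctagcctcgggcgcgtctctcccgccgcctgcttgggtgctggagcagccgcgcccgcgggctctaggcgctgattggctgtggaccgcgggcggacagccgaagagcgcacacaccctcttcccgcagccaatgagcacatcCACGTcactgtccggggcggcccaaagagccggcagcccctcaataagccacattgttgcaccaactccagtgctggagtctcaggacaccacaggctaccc
The first Pfkfb3 window holds 2 matches to ACGTG, both within 1 CACGTG, and 2 to GCGTG, and the second holds 1 match to ACGTG. The Pfkp window holds 4 matches to GCGTG and 0 to ACGTG. Slc16a1, whose level did not pass the test in OIR, has 3 matches to ACGTG and 2 to GCGTG, and Hk2 has 2 to ACGTG. A match says only that these letters are in the window.

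The arrays resembled retina throughout. On the 8 arrays of day 17 the mean log2 level of the 7 measured rod markers was 11.08 to 11.36. Negative control probes had medians of 5.83 to 6.11 log2, and Pdk4 lay below that array's median on all 10 arrays, Pgam2 on 9 and Slc16a8 on 7, so no fold is given where the lower group was at this level. Lens markers (11 genes) averaged 6.57 and 8.37 on the ISOX DUAL arrays, against 6.12 and 6.40 on the PBS arrays and 5.69 to 6.06 on the uninjected ones. Skeletal muscle markers averaged 5.60 to 5.81 on all arrays. The members' median level was 8.72 and 8.62 on the ISOX DUAL arrays, 8.70 and 8.65 on the PBS arrays, 8.96 and 9.11 on the uninjected OIR arrays, 8.46 and 8.69 in untreated retina of day 17 and 8.01 and 7.91 in that of day 7. The first untreated day 17 array was the lower of its pair for 25 of the 32 members, against 56.0% of all genes. The median gap between both arrays of a group over the members was 0.11 log2 with ISOX DUAL, 0.14 with PBS, 0.20 in uninjected OIR, 0.25 in untreated day 17 and 0.31 in day 7 retina, against 0.07, 0.10, 0.16, 0.18 and 0.22 over all genes.

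**Figure D1:**
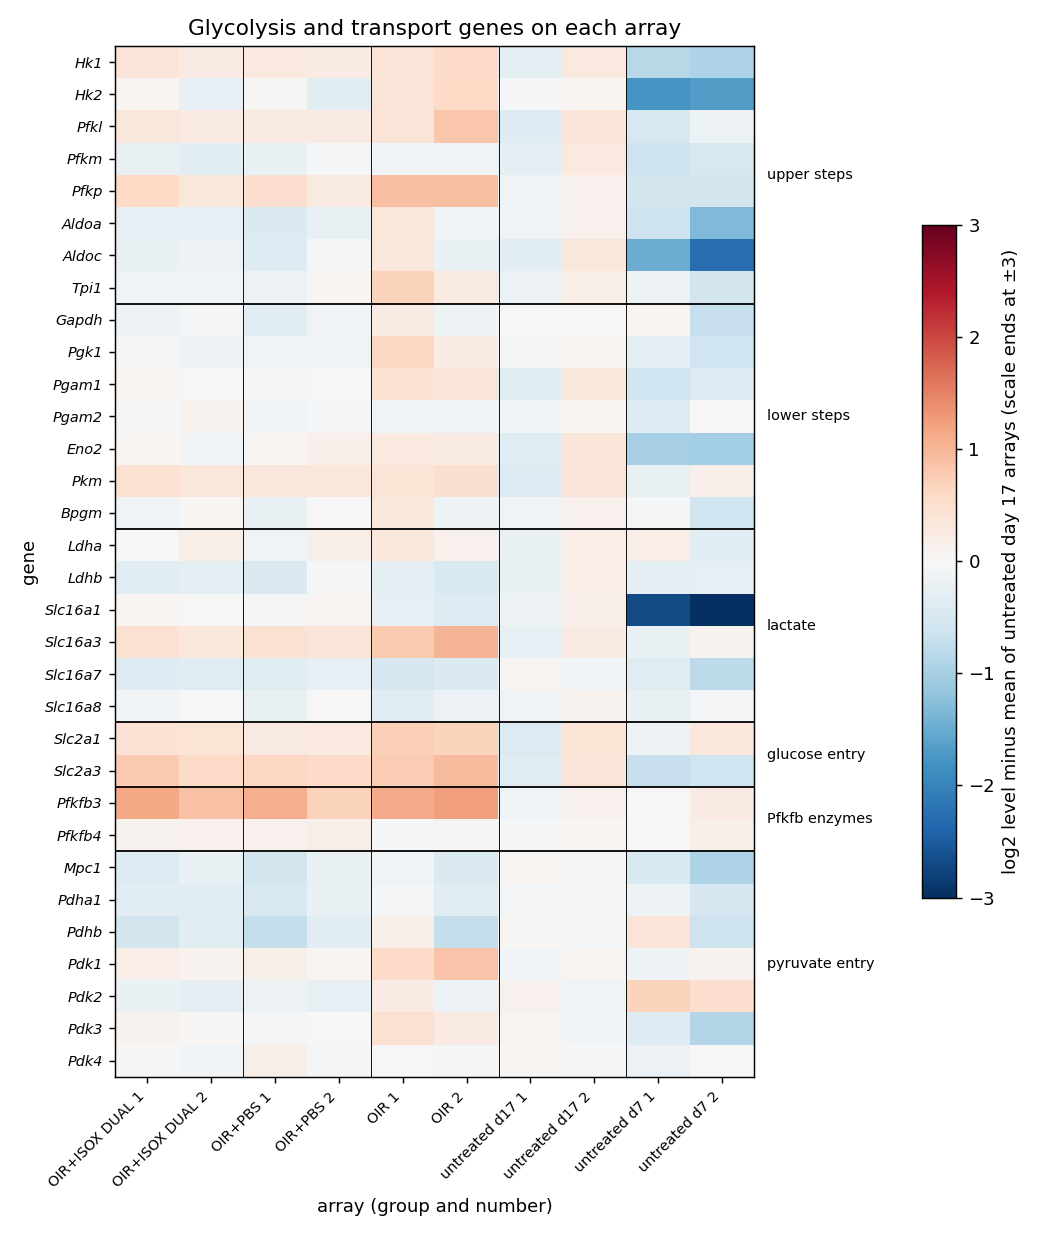
Each row is 1 of the 32 measured genes in the order of its step and each column 1 of the 10 arrays; the colour is the log2 level minus the mean of both untreated day 17 arrays. Pfkfb3 is above 0 on all 6 OIR arrays, and Slc16a1, Aldoc and Hk2 are far below 0 on both day 7 arrays.

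In OIR, the gene for the enzyme that makes the activator of phosphofructokinase and the gene for the platelet-type phosphofructokinase itself were higher than in untreated retina of the same day, and no member was lower past the threshold. Pfkfb3, which makes the small sugar phosphate that activates phosphofructokinase, rose 2.29-fold, and Pfkp, the phosphofructokinase isozyme abundant in brain, rose 1.88-fold. Glucose transporters, the lactate exporter Slc16a3 and the pyruvate dehydrogenase kinase Pdk1 had higher values on both OIR arrays than on both untreated arrays and did not pass. Ldha and Gapdh, whose enzymes make lactate and form NADH, overlapped between the groups.

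Pfkfb3 was at 8.19 and 8.32 log2 in uninjected OIR, against 6.93 and 7.19 in untreated retina of day 17, a difference of 1.20 ± 0.17 log2 (± is the standard error of the limma fit throughout) and an adjusted p of 0.0345. Pfkp was at 11.09 and 11.10 in OIR, against 10.06 and 10.32 in untreated retina, a difference of 0.91 ± 0.13 (adjusted p = 0.0345). The groups do not overlap for either gene. Pfkfb4, an isozyme of Pfkfb3, differed by -0.01 ± 0.10 log2 (adjusted p = 0.999), with overlapping groups. Pfkfb3 and Pfkp were 2 of 32 members past the threshold of an adjusted p of 0.05 in the higher direction, where 0.456% of all tested genes passed, and 0 of 32 in the lower direction, where 0.0387% passed. Both calls were lost when any 1 of the 10 arrays was left out, with adjusted p-values of 0.0524 to 0.262 for Pfkfb3 and 0.0667 to 0.241 for Pfkp, while the differences stayed between 1.07 and 1.32 and between 0.78 and 1.04 log2. In a fit of only the 4 arrays compared, the adjusted p-values were 0.319 for Pfkfb3 and 0.415 for Pfkp.

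Because whole retina was measured, a change in the number of cells of a type and a change in RNA per cell cannot be told apart. Endothelial markers (8 measured of 9 listed) averaged 7.28 and 7.07 log2 in OIR, against 6.93 and 6.74 in untreated retina, with 0 of 8 past the threshold. On both OIR arrays 4 of the 8 were higher and 1, Tek (-0.40), was lower, where 9.44% and 19.0% of all tested genes were. The same shares stand beside the counts of the lists that follow. Cldn5 (0.04), Kdr (0.08) and Emcn (1.09) overlapped between the groups. Retinal progenitor markers (6 measured of 8) averaged 5.74 and 5.73 in OIR, against 5.29 and 5.17 in untreated retina. These averages lay below the negative control medians of the same arrays (5.88 and 5.98 in OIR, 5.83 and 5.84 in untreated retina). On both OIR arrays 3 of the 6 genes were higher, led by Mki67 (1.84 log2) and Top2a (0.94). Birc5 (-0.02), Fgf15 (0.14) and Sfrp2 (-0.07) overlapped between the groups. Microglia and macrophage markers (8) averaged 6.36 and 6.17 in OIR, against 6.06 and 6.11, with 4 of 8 higher on both OIR arrays. The averages of the endothelial, progenitor and microglia lists do not overlap between the groups, although each list holds genes whose groups overlap. Markers of the retinal pigment epithelium (9 of 9 measured) averaged 6.73 and 6.08 in OIR, against 7.11 and 6.70 in untreated retina. On both OIR arrays 6 of these 9 genes were lower and 0 higher, with a median difference of -0.46 log2. Müller glia markers (8 measured of 9) averaged 8.59 and 8.31 in OIR, against 8.53 and 8.82, with 3 genes lower and 2 higher on both OIR arrays. In each of these lists 0 genes passed the threshold. The part of these cell types in the members' differences was not tested.

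Among the other members of the upper steps, Hk1, the hexokinase of most tissues, was at 9.68 and 9.88 in OIR, against 9.01 and 9.60 in untreated retina (0.47 ± 0.18, adjusted p = 0.711). Hk2, a hexokinase abundant in photoreceptors, was at 8.81 and 9.02 in OIR, against 8.36 and 8.50 in untreated retina (0.49 ± 0.16, adjusted p = 0.558). Tpi1, which interconverts the triose phosphates, averaged 10.32 in OIR and 9.83 in untreated retina (0.49 ± 0.20, adjusted p = 0.769). For all 3 genes the OIR arrays lay above both untreated arrays, by a margin under the gap within the untreated pair for Hk1 and Tpi1. Pfkl, the liver-type phosphofructokinase, differed by 0.62 ± 0.25 (adjusted p = 0.763) and Pfkm, the muscle type, by -0.09 ± 0.18 (adjusted p = 0.999). Pfkl was higher on both OIR arrays, by a margin far under the gap within the untreated pair. The aldolases Aldoa and Aldoc differed by 0.12 ± 0.23 and 0.07 ± 0.32, with overlapping groups.

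In the lower steps, Gapdh was at 11.86 and 11.46 in OIR, against 11.64 and 11.60 in untreated retina, a difference of 0.04 ± 0.24 with a 95% interval of -0.52 to 0.60. The annotation of its cluster also lists a Gapdh pseudogene, so its level is uncertain. Pgk1, the first ATP-forming enzyme of the pathway, was at 11.85 and 11.45 in OIR, against 11.17 and 11.29 in untreated retina (0.42 ± 0.15, adjusted p = 0.651). Pgk1 is read here from a cluster placed on chromosome 12 although the gene lies on chromosome X; by its X cluster the difference was 0.46. Pkm, pyruvate kinase, differed by 0.44 ± 0.24 and Pgam1, a phosphoglycerate mutase, by 0.43 ± 0.19, both higher on both OIR arrays and not past the threshold. For both genes the margin between the groups was far under the gap within the untreated pair. Eno2, the neuronal enolase, and Bpgm, which makes bisphosphoglycerate, differed by 0.26 ± 0.20 and 0.08 ± 0.22, with overlapping groups.

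The genes that handle glucose and lactate at the membrane differed in direction. Slc2a1, the glucose transporter of the blood-retina barrier and glia, was at 11.26 and 11.20 in OIR, against 10.12 and 10.96 in untreated retina (0.69 ± 0.26, adjusted p = 0.686). Slc2a3, the neuronal glucose transporter, was at 9.09 and 9.28 in OIR, against 7.98 and 8.70 in untreated retina (0.84 ± 0.22, adjusted p = 0.291). Neither pair of groups overlaps, yet the first untreated array lies 0.84 log2 below the second for Slc2a1 and 0.73 below it for Slc2a3. Slc16a3, the transporter that exports lactate from glycolytic cells, was at 7.91 and 8.15 in OIR, against 6.87 and 7.38 in untreated retina (0.91 ± 0.18, adjusted p = 0.128). Slc16a7, a high-affinity lactate importer of neurons, was at 6.79 and 6.88 in OIR, against 7.39 and 7.22 in untreated retina (-0.47 ± 0.15, adjusted p = 0.514). Slc16a1, the transporter of photoreceptors and Müller glia that moves lactate either way, was at 9.71 and 9.55 in OIR, against 9.79 and 10.10 in untreated retina (-0.32 ± 0.18, adjusted p = 0.999). Slc16a3 thus lay higher, and Slc16a7 and Slc16a1 lower, on both OIR arrays, with none of the 3 past the threshold. Ldha, the lactate dehydrogenase subunit that favours lactate formation, was at 11.19 and 10.97 in OIR, against 10.65 and 11.04 in untreated retina (0.23 ± 0.21, adjusted p = 0.999). Ldhb, the subunit that favours pyruvate, differed by -0.38 ± 0.16 (adjusted p = 0.812), with both OIR arrays below both untreated ones. Slc16a8, the lactate transporter of the retinal pigment epithelium, and Pgam2 were near the negative control probes and differed by -0.24 ± 0.12 and -0.12 ± 0.14.

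At the entry of pyruvate into mitochondria, Pdk1, a kinase that switches off pyruvate dehydrogenase, was at 8.09 and 8.36 in OIR, against 7.43 and 7.58 in untreated retina. This difference of 0.71 ± 0.13 log2, or 1.64-fold, had the third smallest p of the members, and its adjusted p of 0.0991 did not pass. The other kinases differed by 0.03 ± 0.15 (Pdk2) and 0.35 ± 0.16 (Pdk3), and Pdk4 was at the level of the negative control probes. Mpc1, a subunit of the mitochondrial pyruvate carrier, was at 7.24 and 6.91 in OIR, against 7.39 and 7.29 in untreated retina (-0.26 ± 0.19, adjusted p = 0.999). Pdha1 and Pdhb, the subunits of the dehydrogenase itself, differed by -0.18 ± 0.15 and -0.27 ± 0.37.

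Over all 32 members the median difference between OIR and untreated retina was 0.18 log2, with 21 positive, against a median of -0.04 over all tested genes. Both OIR arrays lay above both untreated arrays for 14 members, where 9.44% of all genes did, and below both for 7, where 19.0% did. Among the 14, Pkm, Pgam1 and Pfkl were above by a margin far under the gap within the untreated pair. Leaving out the second untreated day 17 array moved the median to 0.34, and leaving out the first moved it to 0.04. By role, the medians were 0.48 for the 8 genes of the upper steps, 0.26 for the 7 of the lower steps, 0.76 for the 2 glucose transporters, -0.28 for the 6 lactate genes and -0.04 for the 7 genes at the entry of pyruvate.

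**Figure D2:**
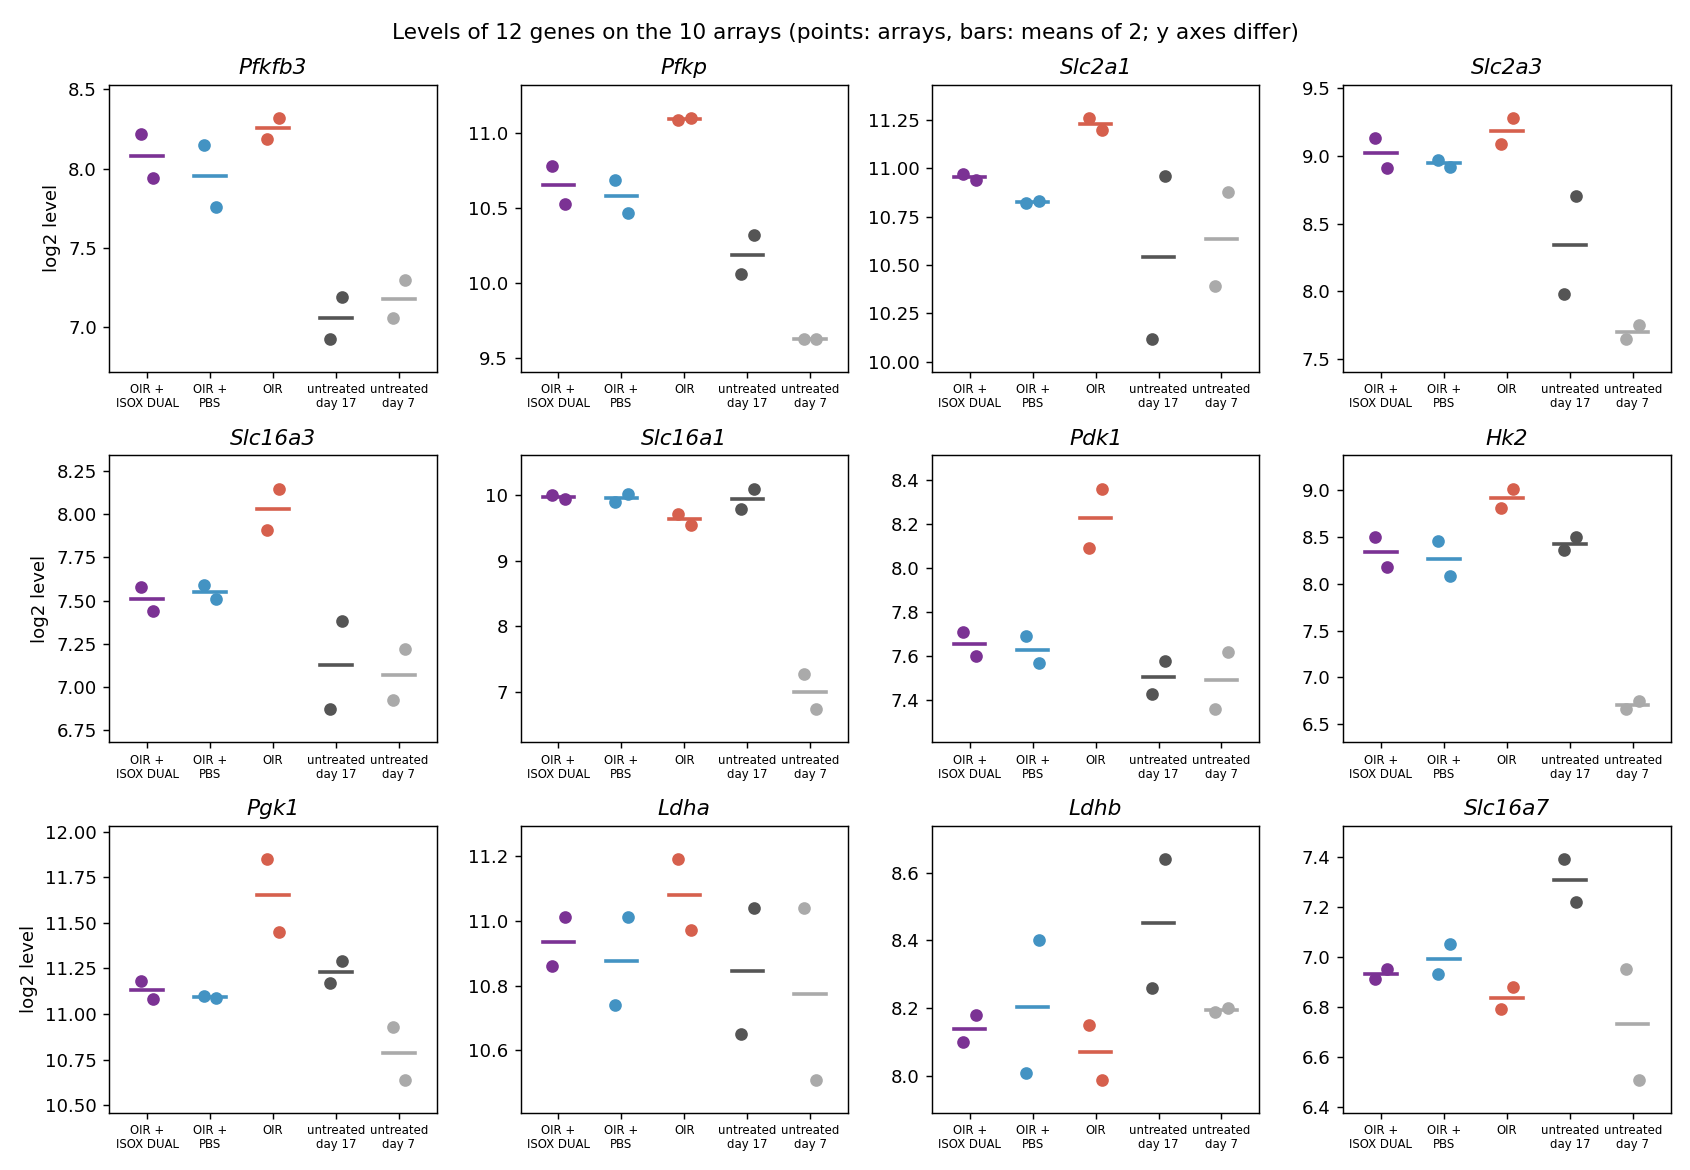
Log2 levels of 12 members on the 10 arrays, with points for arrays and bars for the means of 2; the groups run from ISOX DUAL at the left through PBS, uninjected OIR and untreated day 17 to day 7 at the right, and the y axes differ. Pfkfb3 and Pfkp are higher on both uninjected OIR arrays than on both untreated ones, and Pdk1 and Slc16a3 on the injected arrays lie below the uninjected OIR arrays.

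Of 78 further tested genes of glucose metabolism (85 listed), 1 rose in OIR and 0 fell, beside 0.456% and 0.0387% of all genes, and their median difference was -0.05 log2. The gene that rose was Gys1, the glycogen synthase of muscle and brain, at 8.12 and 7.98 in uninjected OIR, against 6.81 and 7.00 in untreated retina (1.14 ± 0.12, 2.21-fold, adjusted p = 0.0165). Its groups do not overlap, but the call was lost in a fit of only the 4 arrays compared, where 0 of all genes passed. Among the listed neighbours, 0 of 10 other isozymes, 0 of 11 other sugar transporters, 0 of 5 genes of the pentose phosphate pathway and 0 of 10 genes of the NADH shuttles passed.

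The question that the series asked of ISOX DUAL was set against the PBS injection. No member differed between them past the threshold, and neither did any of the 23255 genes, 0.0% of which passed. At an unadjusted p under 0.05 there were 0 of 32 members and 237 of all genes. The members' differences ran from -0.15 to 0.13 log2 with a median of 0.05, against 0.01 over all genes. Both ISOX DUAL arrays lay above both PBS arrays for 2 members and below them for 3, where 16.6% and 11.5% of all genes did.

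The 2 genes that rose in OIR overlapped between the injections. Pfkfb3 was at 8.22 and 7.94 with ISOX DUAL, against 8.15 and 7.76 with PBS, a difference of 0.13 ± 0.17 with a 95% interval of -0.27 to 0.53. Pfkp was at 10.78 and 10.53 with ISOX DUAL, against 10.69 and 10.47 with PBS, a difference of 0.07 ± 0.13 with an interval of -0.23 to 0.38. The intervals include a fall of 0.27 log2 for Pfkfb3 and of 0.23 log2 for Pfkp, and so do not show that the injections acted alike.

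The 5 members of smallest p in this comparison were Pdk4, Pfkm, Pfkfb3, Pdk3 and Pgam2, each with an adjusted p of 1.0. Pfkm was at 8.16 and 8.05 with ISOX DUAL, against 8.18 and 8.33 with PBS (-0.15, interval -0.55 to 0.26). Pdk3, a kinase of pyruvate dehydrogenase, was at 7.71 and 7.63 with ISOX DUAL, against 7.53 and 7.61 with PBS (0.10, interval -0.27 to 0.48). Pdk4 and Pgam2, the muscle phosphoglycerate mutase, were near the negative control probes, with 4.97 and 4.84 for Pdk4 and 5.71 and 5.89 for Pgam2 with ISOX DUAL, against 5.09 and 4.90 and 5.70 and 5.73 with PBS. Pfkm was lower and Pdk3 higher on both ISOX DUAL arrays, and the other two overlap. For the membrane transporters the differences were 0.13 (interval -0.47 to 0.73) for Slc2a1, 0.08 (-0.42 to 0.58) for Slc2a3, -0.04 (-0.47 to 0.39) for Slc16a3 and 0.02 (-0.41 to 0.44) for Slc16a1. The second ISOX DUAL array, which had the high lens marker level, was the lower of its pair for Pfkfb3, Pfkp, Hk2 and Slc16a3. So was the second PBS array for the same genes. The gaps in that order were 0.28, 0.25, 0.31 and 0.13 log2 with ISOX DUAL and 0.39, 0.22, 0.38 and 0.07 with PBS. Over all 32 members the pairs did not run alike. The second array was the higher of its pair for 12 members with ISOX DUAL and for 20 with PBS. Of all genes, 49.4% and 61.6% were higher on the second array. The part of lens RNA in the differences between the injections was not tested.

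**Figure D3:**
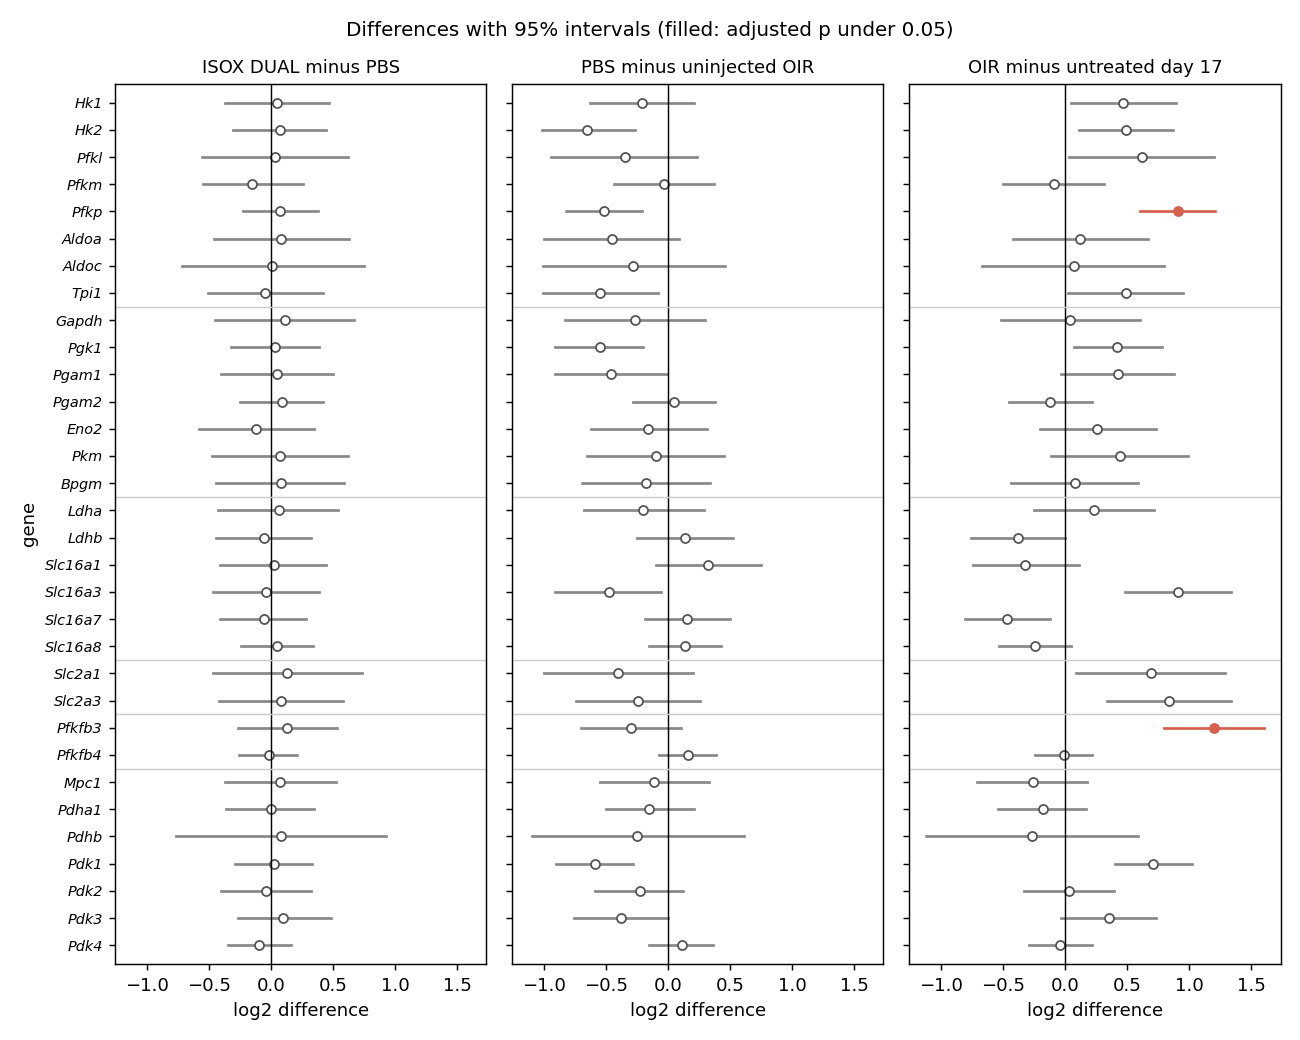
Log2 differences of the 32 members with 95% intervals from the limma fit, for ISOX DUAL minus PBS, PBS minus uninjected OIR and uninjected OIR minus untreated day 17; filled points have an adjusted p under 0.05. The left panel holds differences of -0.15 to 0.13, and only Pfkp and Pfkfb3 are filled, in the right panel.

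Both injected groups were also set against uninjected OIR. These comparisons share the uninjected arrays, so their values are given side by side and are not independent. Pdk1 was at 7.71 and 7.60 with ISOX DUAL and at 7.69 and 7.57 with PBS, against 8.09 and 8.36 in uninjected OIR. It differed from uninjected OIR by -0.57 ± 0.13 with ISOX DUAL (adjusted p = 0.613) and by -0.59 ± 0.13 with PBS (adjusted p = 0.517). All 4 injected arrays lay below both uninjected ones. Hk2 was at 8.50 and 8.18 with ISOX DUAL and at 8.46 and 8.08 with PBS, against 8.81 and 9.02 in uninjected OIR, with differences of -0.58 ± 0.16 and -0.65 ± 0.16. Pfkp differed by -0.44 ± 0.13 with ISOX DUAL and by -0.52 ± 0.13 with PBS. Hk2 and Pfkp trap glucose and commit it to glycolysis, and Pgk1 and Tpi1 act further down. Pgk1 was at 11.18 and 11.08 with ISOX DUAL and at 11.10 and 11.09 with PBS, against 11.85 and 11.45 in uninjected OIR, with differences of -0.52 and -0.55 (-0.47 and -0.53 by its X cluster). Tpi1 was at 9.73 and 9.72 with ISOX DUAL and at 9.65 and 9.89 with PBS, against 10.53 and 10.10 in uninjected OIR, with differences of -0.60 and -0.55. Every injected array lay below both uninjected OIR arrays for Hk2, Pfkp, Pgk1 and Tpi1 as well, and none of these differences passed the threshold. Slc16a3 differed by -0.52 ± 0.18 with ISOX DUAL and by -0.48 ± 0.18 with PBS, while Pfkfb3 differed by -0.17 ± 0.17 and -0.30 ± 0.17.

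More members lay below than above uninjected OIR after either injection. With ISOX DUAL, 0 of 32 members passed against uninjected OIR, where 0.0043% of all genes (1 gene) passed, and 6 members and 998 genes had an unadjusted p under 0.05. With PBS, 0 of 32 members and 0.0% of all genes passed, and 8 members and 997 genes had an unadjusted p under 0.05. Both ISOX DUAL arrays lay below both uninjected arrays for 15 members, where 15.4% of genes did, and above for 5, where 25.7% did. Both PBS arrays lay below for 16 members, where 15.3% did, and above for 4, where 20.9% did. The members' median difference was -0.17 with ISOX DUAL and -0.24 with PBS, against 0.02 and 0.01 over all genes. Leaving out the first uninjected OIR array gave a PBS median of -0.11, and leaving out the first PBS array gave -0.13. The ISOX DUAL median was -0.29 without the second uninjected OIR array and -0.11 without the first. Lens markers lay above both uninjected arrays for 11 of 11 genes with ISOX DUAL (median 1.43 log2) and for 9 of 11 with PBS (0.35), and Müller glia markers for 6 of 8 (0.28) and 5 of 8 (0.25), with 0 past the threshold. Among the Müller glia markers Vim went the other way, by -0.35 with ISOX DUAL and -0.72 with PBS. Of 8 endothelial markers, 3 lay above and 4 below with ISOX DUAL, and 3 above and 3 below with PBS. The part of these cell types in the members' differences was not tested.

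Against untreated retina of day 17, whose arrays are also shared, Pfkfb3 had the smallest p of the members in both injected groups. Its difference was 1.02 ± 0.17 with ISOX DUAL (2.03-fold, adjusted p = 0.191) and 0.90 ± 0.17 with PBS (1.86-fold, adjusted p = 0.477). Pfkp differed by 0.46 ± 0.13 with ISOX DUAL and 0.39 ± 0.13 with PBS. Slc2a3 was at 9.13 and 8.91 with ISOX DUAL and at 8.97 and 8.92 with PBS, against 7.98 and 8.70 in untreated retina, with differences of 0.68 ± 0.22 and 0.60 ± 0.22. All 4 injected arrays lay above both untreated arrays for these 3 genes. Slc16a3 was at 7.58 and 7.44 with ISOX DUAL and at 7.59 and 7.51 with PBS, against 6.87 and 7.38 in untreated retina (0.39 and 0.43). Pdha1, the catalytic subunit of pyruvate dehydrogenase, was at 8.25 and 8.27 with ISOX DUAL and at 8.12 and 8.41 with PBS, against 8.56 and 8.64 in untreated retina (-0.34 and -0.33). Slc16a7 was at 6.91 and 6.95 with ISOX DUAL and at 6.93 and 7.05 with PBS, against 7.39 and 7.22 in untreated retina (-0.38 and -0.31). Pdha1 and Slc16a7 were thus lower on all 4 injected arrays. No member passed: with ISOX DUAL 0 of 32 members and 0.0172% of all genes did (4 genes; 4 members and 1967 genes at an unadjusted p under 0.05), and with PBS 0 of 32 and 0.0% (3 members and 2126 genes at an unadjusted p under 0.05).

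Pairs of genes with the same task changed relative to each other across the arrays. Since levels of different probes cannot be compared, the difference between the log2 values of both genes was set to 0 at the mean of the untreated day 17 arrays and only its change is given, with no test. The lactate transporters Slc16a3 and Slc16a1 changed furthest. Slc16a3 relative to Slc16a1 stood at 0.40 and 0.32 with ISOX DUAL, at 0.52 and 0.32 with PBS and at 1.03 and 1.43 in uninjected OIR, against -0.10 and 0.10 in untreated retina of day 17, and it stood at 2.47 and 3.30 on day 7. In uninjected OIR most of the change lay in Slc16a3 (0.91, with -0.32 for Slc16a1). On day 7 it lay in low Slc16a1, since day 17 minus day 7 was 2.94 for Slc16a1 and 0.06 for Slc16a3. Ldha relative to Ldhb stood at 0.36 and 0.44 with ISOX DUAL, at 0.34 and 0.22 with PBS and at 0.64 and 0.58 in uninjected OIR, against -0.01 and 0.01 in untreated retina of day 17. All 6 OIR arrays were therefore above both untreated day 17 arrays for both pairs, although Ldha alone overlapped, and on day 7 the Ldha pair stood at 0.45 and -0.08. Hk2 relative to Hk1 stood at -0.32 and -0.48 with ISOX DUAL and at -0.25 and -0.58 with PBS, against 0.01 and 0.03 in uninjected OIR. In untreated retina of day 17 it stood at 0.22 and -0.22, so the second untreated array was near the first array of each injected group.

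**Figure D4:**
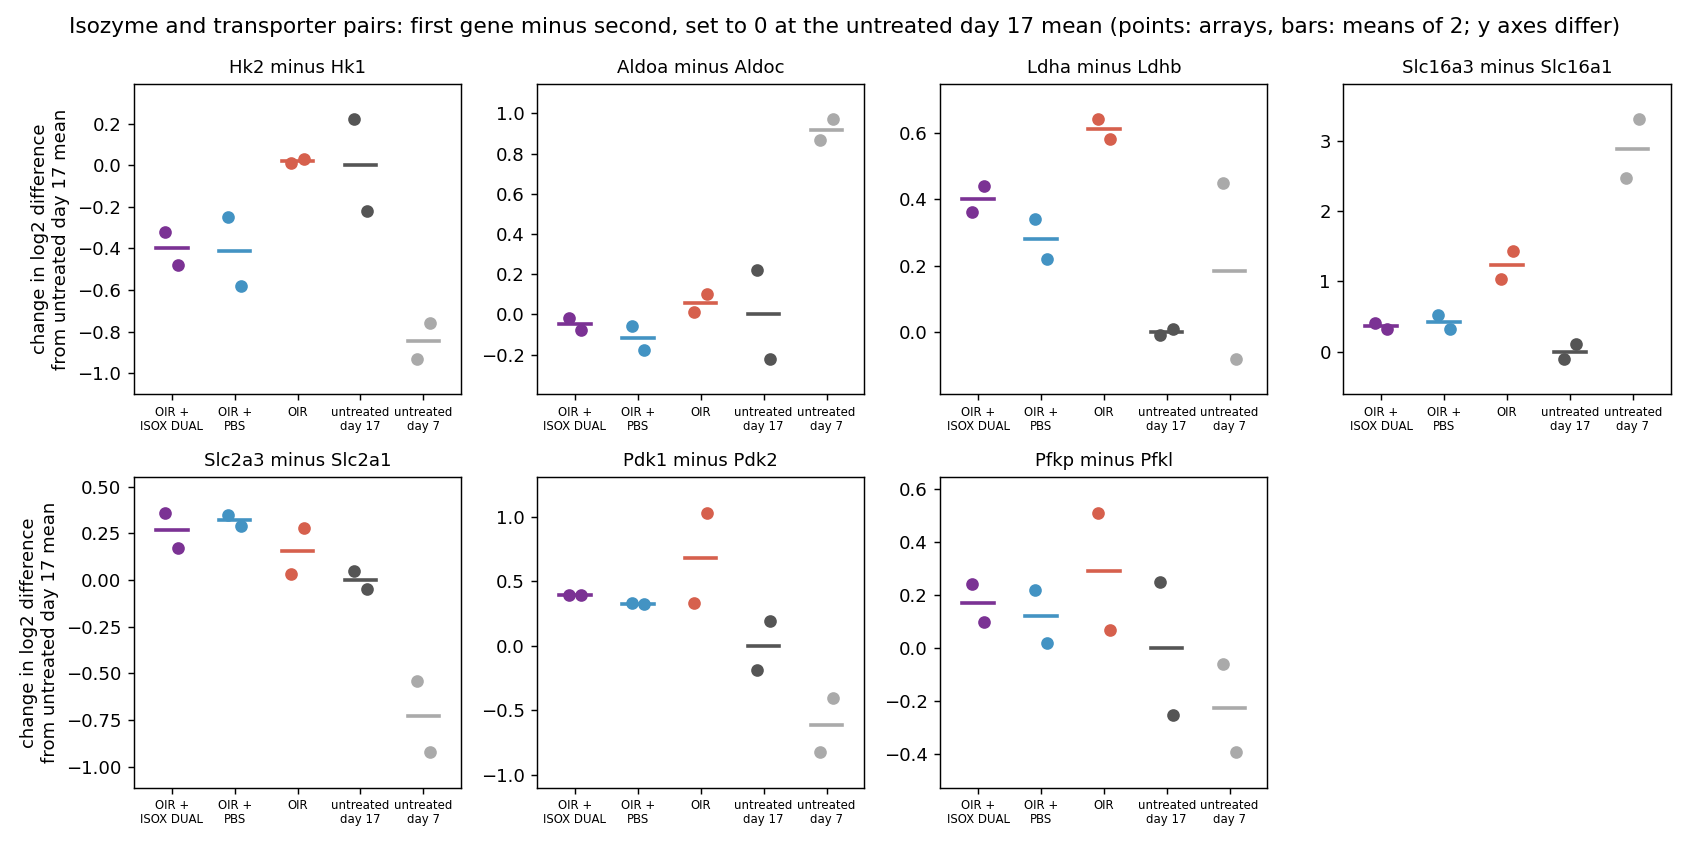
For 7 pairs of isozymes, transporters or kinases, the log2 value of the first gene minus that of the second on each array, set to 0 at the mean of the untreated day 17 arrays (points are arrays, bars are means of 2, y axes differ). The Slc16a3 pair averages 1.23 in uninjected OIR and 2.88 on day 7, and the Ldha pair averages 0.61 in uninjected OIR. The day 7 value of the Slc16a3 pair lies in low Slc16a1.

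Between day 17 and day 7 of untreated development, 5 of the 8 tested genes of the upper steps, Hk1 and Hk2 among them, and 2 of the 6 lactate genes rose, with 1 of 7 in the lower steps and 1 of 7 at the entry of pyruvate. In the comparison of day 17 with day 7, 9 of 32 members were higher past the threshold, where 5.26% of all genes were, and 0 were lower, where 5.29% of all genes were. The 9 were Slc16a1, Hk2, Aldoc, Eno2, Hk1, Pfkp, Aldoa, Pdk3 and Slc16a7.

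Slc16a1 was at 9.79 and 10.10 log2 on day 17, against 7.27 and 6.74 on day 7, a difference of 2.94 ± 0.18 or 7.67-fold (adjusted p = 0.000158). Hk2 was at 8.36 and 8.50 on day 17, against 6.66 and 6.75 on day 7, a difference of 1.72 ± 0.16 or 3.30-fold (adjusted p = 0.000908). Aldoc, the aldolase of brain and retina, was at 9.27 and 9.95 on day 17, against 8.11 and 7.32 on day 7, a difference of 1.89 ± 0.32 or 3.72-fold (adjusted p = 0.00896). For these 3 genes the gap between the groups was larger than any gap within them, and each stayed past the threshold when any 1 array was left out.

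Eno2 was at 8.60 and 9.31 on day 17, against 7.95 and 7.91 on day 7 (1.03 ± 0.20, 2.04-fold, adjusted p = 0.0169). Hk1 was at 9.01 and 9.60 on day 17, against 8.47 and 8.39 on day 7 (0.87 ± 0.18, 1.83-fold, adjusted p = 0.0207). Pfkp was at 10.06 and 10.32 on day 17, against 9.63 on both arrays of day 7 (0.55 ± 0.13, adjusted p = 0.0358). The groups do not overlap for these genes or for the following ones. Aldoa, the general aldolase, was at 9.53 and 9.77 on day 17, against 9.02 and 8.33 on day 7 (0.98 ± 0.23, adjusted p = 0.0376). Pdk3 was at 7.67 and 7.52 on day 17, against 7.21 and 6.72 on day 7 (0.64 ± 0.16, adjusted p = 0.0469). Slc16a7 was at 7.39 and 7.22 on day 17, against 6.95 and 6.51 on day 7 (0.57 ± 0.15, adjusted p = 0.0492). These 6 calls were less firm: leaving out 1 array at a time, Eno2 and Hk1 each passed in 8 of 10 fits, being lost without either day 7 array, Aldoa in 3, and Pdk3, Pfkp and Slc16a7 in 1 each. The adjusted p-values reached 0.0785 for Eno2, 0.0941 for Hk1, 0.129 for Aldoa, 0.189 for Pdk3, 0.123 for Pfkp and 0.204 for Slc16a7.

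Several members that stood higher in OIR did not pass between the days. Pfkfb3 was at 6.93 and 7.19 on day 17, against 7.06 and 7.30 on day 7 (-0.12, interval -0.52 to 0.28). Pdk1 was at 7.43 and 7.58 on day 17, against 7.36 and 7.62 on day 7 (0.02, interval -0.29 to 0.33). Slc16a3 was at 6.87 and 7.38 on day 17, against 6.92 and 7.22 on day 7 (0.06, interval -0.37 to 0.48). For each the groups overlap. Slc2a1 was at 10.12 and 10.96 on day 17, against 10.39 and 10.88 on day 7 (-0.09), and Ldha at 10.65 and 11.04 on day 17, against 11.04 and 10.51 on day 7 (0.07). Gapdh was at 11.64 and 11.60 on day 17, against 11.69 and 10.92 on day 7 (0.32 ± 0.24, adjusted p = 0.529), and Mpc1 at 7.39 and 7.29 on day 17, against 6.89 and 6.42 on day 7 (0.68 ± 0.19, adjusted p = 0.0636). The one member that was lower on both day 17 arrays was Pdk2, the widely expressed pyruvate dehydrogenase kinase, at 8.86 and 8.62 on day 17, against 9.41 and 9.25 on day 7 (-0.59 ± 0.15, adjusted p = 0.0524). Pdk2 passed as lower with quantile normalization (adjusted p = 0.0225) and without either uninjected OIR array (adjusted p = 0.0287). Without the first untreated day 17 array Pfkm, Pgam1 and Slc2a3 passed as higher (adjusted p = 0.0118, 0.0135 and 0.0109), and without the first day 7 array Mpc1 did (adjusted p = 0.0324).

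The members' median difference between the days was 0.33 log2, with 28 of 32 positive, against 0.01 over all genes. Both day 17 arrays lay above both day 7 arrays for 16 members, where 20.7% of genes did, and below for 1, where 19.7% did. Leaving out the first day 7 array moved the median to 0.53, and leaving out the second moved it to 0.18. Markers of retinal cell types moved with age: rod markers (7 measured) averaged 11.30 and 11.36 log2 on day 17, against 9.76 and 8.84 on day 7, with 6 of 7 past the threshold and higher. Cone markers (7) averaged 9.06 and 9.01 on day 17, against 7.44 and 7.11 on day 7, and retinal progenitor markers (6 measured of 8) averaged 5.29 and 5.17 on day 17, against 6.73 and 7.26 on day 7, with 4 of 6 past the threshold and lower. The part of these shifts in the members' differences was not tested.

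**Figure D5:**
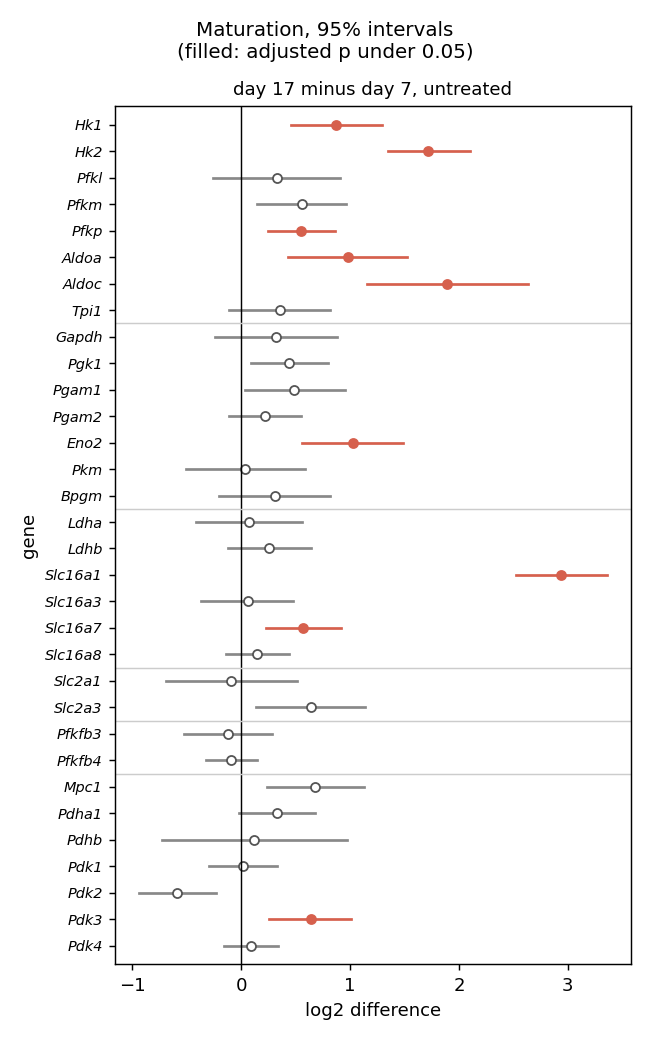
Log2 differences of the 32 members between day 17 and day 7 of untreated retina with 95% intervals; filled points have an adjusted p under 0.05. The 9 filled points are all above 0, led by Slc16a1 at 2.94, and Pdk2 at -0.59 is the lowest.

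Among the 78 further genes of glucose metabolism, 7 were higher and 6 lower on day 17 than on day 7, beside 5.26% and 5.29% of all genes, with a median difference of 0.07 log2. Higher were the monocarboxylate transporters Slc16a6 (1.69 ± 0.10, adjusted p = 0.000158) and Slc16a9 (0.45), the inositol transporter Slc2a13 (0.85), the aspartate aminotransferase Got1 (0.97), the glycogen phosphorylases Pygm (1.06) and Pygl (0.75), and Ppp1r3c (1.26), a scaffold that brings a phosphatase to glycogen. Lower were the mitochondrial aspartate and glutamate carrier Slc25a13 (-1.36 ± 0.09, adjusted p = 0.000288), the hexokinase-like gene Hkdc1 (-1.33), the mitochondrial serine enzyme Shmt2 (-1.01), the phosphoglucomutase Pgm2 (-0.84) and the transporters Slc16a14 (-0.75) and Slc16a13 (-0.56). Of 10 tested partners and other monocarboxylate transporters, 2 rose and 2 fell.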

How the data were processed

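Total RNA of whole retina (Trizol, then WT Terminal Labeling Kit, per the labels' protocols) was measured on 10 Affymetrix arrays. The table that the authors deposited gives each transcript cluster 1 log2 value on every array, a scale read from the values (1.03 to 13.67, array medians 5.55 to 5.68); how they were corrected and normalized, and with which software, is not given in the sources used here. They were used as deposited. Of 65956 clusters left after 6732 control rows, 30604 have 1 symbol, 2146 several and 33206 none in the platform annotation. Symbols were updated with RefSeq genes of GRCm38.p6 through the Entrez identifier (22815 clusters) or the symbol or a synonym (7787). Clusters are printed without coordinates, since the values come with no named build.

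All 7 comparisons used one limma model (version 3.58.1, under R 4.3.3; lmFit, eBayes without trend, two-sided) of all 10 arrays, with 5 residual and 2.76 prior degrees of freedom, and adjusted by Benjamini-Hochberg over 23255 genes. With 2 arrays a group, the precision over all tested genes was a median standard error of 0.134 log2 and a median 95% interval of ± 0.311. Among the members the standard error ran from 0.10 (Pfkfb4) to 0.37 (Pdhb). The labels do not say whether a group's arrays came from separate animals, so the p-values rest only on array-to-array spread, possibly technical. The fit was tested on simulated data. Values were named by a set rule: every array for members past the threshold in a comparison, the 5 of smallest p in each and the first measured of each role. The first of each role were given so only for uninjected OIR against untreated retina and between the days. Other pathway genes were given only where past the threshold, though the rule also allowed the 2 of smallest p in a list. Members, lists and markers were chosen with earlier results of these data known. Alternatives tried were quantile normalization, other filters, the mean of a gene's clusters, only the 4 arrays compared, array weights, a trend in eBayes, a replicate block and leaving out each array; the crossed block and Pgk1 by its X cluster were added after seeing the data.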

Additional observations from a re-analysis of the deposited data

How the results depend on the processing

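For the 11 member calls, 2 in OIR and 9 between the days, no alternative turned the direction. The 2 members in OIR became 1 with quantile normalization, 1 with a trend in eBayes, and 0 with only the 4 arrays compared, with array weights and in all fits without 1 array (lowest 0, highest 0, each with fewer arrays and degrees of freedom). The 9 members between the days became 2 with only the 4 arrays compared and 3 with array weights, and 3 to 9 without 1 array. Slc16a1 and Hk2 passed in all 20 alternatives and Aldoc in 19. Over all genes, the 115 of OIR became 0 with 4 arrays and 12 with array weights (0 to 84 without 1 array), and the 2454 between the days became 345 and 1111 (1500 to 2227 without 1 array). ISOX DUAL against PBS gave 0 genes, and 0 to 1 without 1 array. PBS against OIR gave 2 genes with quantile normalization instead of 0. ISOX DUAL against OIR (1 gene) gave 0 with 4 arrays, 3 with array weights and 0 to 7 without 1 array. ISOX DUAL against untreated (4 genes) gave 2 with quantile normalization, 0 with 4 arrays, 0 with array weights, 9 with a trend and 0 to 6 without 1 array. The members' medians ranged, without 1 array, over 0.04 to 0.34 in OIR (0.18), -0.29 to -0.11 for PBS against OIR (-0.24), -0.29 to -0.11 for ISOX DUAL against OIR (-0.17), -0.18 to 0.12 for PBS against untreated (-0.05) and 0.18 to 0.53 between the days (0.33). The cause of these shifts was not tested.

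The labels do not say that array numbers pair the samples. Across genes, first-minus-second array differences had correlations of 0.583 to 0.809 among the uninjected groups, 0.399 between the injected groups and -0.406 to -0.0567 between an injected and an uninjected group. With the replicate block, OIR had 0 members past the threshold (adjusted p = 0.057 for Pfkfb3 and 0.0522 for Pfkp), Pdk2 passed as lower on day 17 than on day 7 (adjusted p = 0.0152), and there were 5 genes for PBS against OIR, 2 for PBS against untreated and 2 for ISOX DUAL against untreated. With the numbers of the injected groups crossed, the members past the threshold were 4 in OIR, 1 for PBS and 1 for ISOX DUAL against untreated, and the genes were 215 in OIR, 4 for PBS and 5 for ISOX DUAL against OIR, and 43 for PBS and 53 for ISOX DUAL against untreated.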
